A study of Rattus norvegicus with 46 samples.

Results

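Rats infused with angiotensin II under the skin for 2 weeks were compared with rats given vehicle, as 1 of the models of cardiac hypertrophy in the series. The comparison holds 4 of the 46 arrays, chosen by their labels: 2 angiotensin II arrays and 2 vehicle arrays. All were made from left ventricle of male Wistar rats, and each array holds 1 pool of RNA from several animals. Angiotensin II was delivered by implanted osmotic pumps. The labels describe the vehicle arrays as saline infusion, whereas the methods describe pumps with vehicle for angiotensin II and saline for the thyroid hormone analogue Ditpa, and which animals entered the vehicle pools is not given in the sources used here. The same 2 vehicle arrays are also the controls of the 2 Ditpa arrays. Elsewhere in the series stand 22 arrays of surgical models and their 16 sham arrays, which are used here for comparison. They were taken after aortic banding (6, 12, 16 and 30 weeks), infarction (3 and 9 weeks) and aortocaval shunt (3 and 8 weeks). The infused rats thus differ from them in time and procedure as well as in treatment. The series also holds arrays of neonatal left ventricle. Those are not compared here, but they entered the quantile normalization, the fit and the choice of brightest probe sets.

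Angiotensin II is the effector peptide of the renin-angiotensin system. It constricts vessels and raises aldosterone through its type 1 receptor, a Gq-coupled receptor, and acts on heart muscle, fibroblasts, vessel wall and leukocytes. In the heart it is known for hypertrophy with re-expression of natriuretic peptide and skeletal actin genes, for matrix deposition, and for inflammation of the vessel wall with chemokines and adhesion molecules. Interferon-responsive genes form a separate programme, switched on by STAT and IRF factors that bind a DNA motif called the interferon-stimulated response element.

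No probe set passed an adjusted p below 0.05 between angiotensin II and vehicle on the deposited scale (0% of 8740) or on the quantile scale (0%). At an unadjusted p below 0.05, limma gave 305 probe sets (3.49%) on the deposited scale, of which 114 were higher (1.30%) and 191 lower (2.19%), and 180 (2.06%) on the quantile scale, of which 110 were higher (1.26%) and 70 lower (0.801%). Over 4736 genes, each read by its brightest probe set, 1.25% were higher and 1.96% lower on the deposited scale and 1.33% and 0.676% on the quantile scale. Both angiotensin II arrays lay above both vehicle arrays in 19.5% of genes and below both in 18.2% on the deposited scale, and in 15.7% and 22.0% on the quantile scale. With the sham groups in place of vehicle 438 probe sets (5.01%) and 251 (2.87%) were called on the deposited and quantile scales, and vehicle against the same shams gave 15 and 14. Of 91 probe sets of named genes, 60 passed an adjusted p of 0.05 against the sham groups on the deposited scale. Many of these genes were named for their values on the same 2 angiotensin II arrays, so that count supports nothing. On that scale the highest intensity of each sham array, from 27718 to 64867, also lay above both angiotensin II arrays. Since no probe set passed against vehicle, the values below are described as higher or lower, with the spread between arrays. All levels are log2 intensities, and all differences are log2, angiotensin II minus vehicle. Because arrays hold pools, the p-values measure the spread between pools. In bulk tissue, fewer cells of a type and less RNA per cell cannot be told apart.

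The 2 scales differed for bright probe sets. The highest intensity was 22581 and 23633 on the angiotensin II arrays, against 33408 and 39898 on the vehicle arrays, and it was 22988 and 23322 on the Ditpa arrays. Median intensities were alike, from 1070 to 1077 with angiotensin II and from 1046 to 1064 with vehicle. Over the 100 brightest probe sets the median difference was -0.55 on the deposited scale and -0.02 on the quantile scale. Quantile normalization gives every array the same distribution, so it would also remove a lowering shared by the brightest probe sets. Differences of several bright genes are therefore given on both scales, and those of other bright genes on the deposited scale only.

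**Figure D1:**
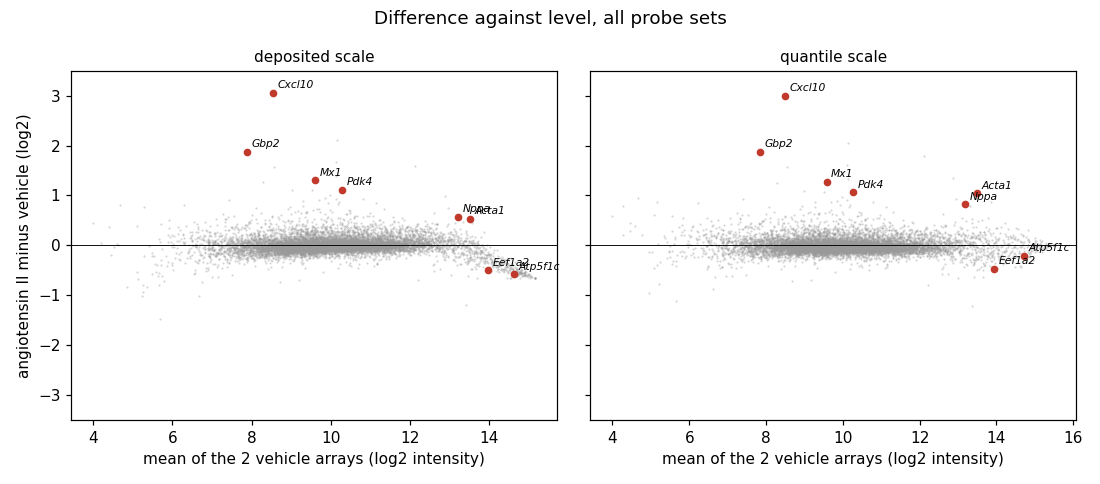
Each point is 1 of 8740 probe sets, with the mean log2 intensity of the 2 vehicle arrays on the x axis and the log2 difference of angiotensin II minus vehicle on the y axis, on the deposited scale (left) and the quantile scale (right). Red points mark named genes. The brightest probe sets bend below 0 on the deposited scale only, and Cxcl10 stands at 3.06 on the deposited and 3.00 on the quantile scale.

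The genes that stood highest after angiotensin II belonged largely to the interferon, chemokine and endothelial adhesion groups. Their promoters are shown first, since several share the interferon-stimulated response element. Of the 11 genes of an interferon-responsive list that were higher at an unadjusted p below 0.05 on both scales, all 11 had a RefSeq promoter entry (GRCr8), and 8 held GAAANNGAAA, on either strand, within the 250 bases before the start (Cxcl10, Rsad2, Irf7, Gbp2, Eif2ak2, Oas1a, Ifitm3 and Irgm2). The same letters were found in 3.41% of 33469 promoter windows of that length. The 11 come from a list of known interferon-responsive genes, written after these genes were seen to lead. Their share of matches therefore describes that choice and supports nothing about angiotensin II. A match is a description of the sequence and not a site of binding. The windows below give the interferon element in capitals, and for Cxcl10 also the matches to the kappaB site, which 6.33% of the windows held. A match on the other strand reads TTTC first. The Cxcl10 window is chr14:15988816-15989065, plus strand, and holds both elements.
Cxcl10: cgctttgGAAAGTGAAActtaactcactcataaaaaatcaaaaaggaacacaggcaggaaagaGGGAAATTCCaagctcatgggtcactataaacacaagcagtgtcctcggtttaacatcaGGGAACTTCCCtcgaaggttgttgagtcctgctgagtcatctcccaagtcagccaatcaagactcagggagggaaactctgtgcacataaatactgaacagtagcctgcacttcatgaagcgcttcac
The other windows are chr6:48788233-48788292, minus strand, for Rsad2, chr1:205800058-205800117, minus strand, for Irf7, chr2:234005671-234005726, plus strand, for Gbp2 and chr10:42889843-42889902, plus strand, for Irgm2.
Rsad2: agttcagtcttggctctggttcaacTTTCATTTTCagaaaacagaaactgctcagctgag
Irf7: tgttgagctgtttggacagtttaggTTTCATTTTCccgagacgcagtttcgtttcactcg
Gbp2: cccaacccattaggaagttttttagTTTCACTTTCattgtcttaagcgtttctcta
Irgm2: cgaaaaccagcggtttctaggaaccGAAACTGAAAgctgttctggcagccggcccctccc

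Cxcl10, the interferon-inducible chemokine that draws activated T cells, was at 12.31 and 10.86 on the angiotensin II arrays and at 8.54 and 8.52 on the vehicle arrays. The groups did not overlap, and the difference was 3.06 ± 0.59 (SE, 2 arrays each, limma adjusted p = 0.11), or 8.33-fold. The 16 sham arrays lay between 8.16 and 8.81 and the 22 surgical arrays between 7.88 and 8.86, so both angiotensin II arrays stood above all of them. The 2 Ditpa arrays did not stand together: replicate 1 was at 8.55 and replicate 2 at 12.70. Whether both Ditpa arrays hold what their labels say could not be checked from the files, and this bears on every Ditpa value here and on the fit without those arrays.

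This split of the Ditpa pair recurred in the genes of the group, and it bears on the test, because limma estimates 1 spread per probe set over all 46 arrays. Mx1, an antiviral GTPase, was at 10.81 and 10.99 with angiotensin II and at 9.72 and 9.47 with vehicle, a difference of 1.31 ± 0.30, and the Ditpa arrays were at 9.51 and 11.51. When the fit was repeated without the 2 Ditpa arrays, an alternative added after seeing the data, the SE of Cxcl10 was 0.27 in place of 0.59 and that of Mx1 0.16 in place of 0.30. In that fit 11 probe sets passed on the deposited scale and 9 on the quantile scale, 8 of them on both, and all were higher with angiotensin II. The 8 were Cxcl10 (limma adjusted p = 2.6e-08), Mx1, both probe sets of Ccl2, Reg3g, Cxcl13, 1 probe set of Rsad2 and 1 of Vcam1. The arrays were left out after they were seen to widen the spread of these genes, so these calls support nothing. The spread is also shared over groups in which Cxcl10 was low, whereas its angiotensin II arrays were at 12.31 and 10.86. Its p-value therefore does not measure the spread between pools in which Cxcl10 is high. Irgm2, Gbp2 and Eif2ak2 passed on the deposited scale only, and Acta1 on the quantile scale only.

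**Figure D2:**
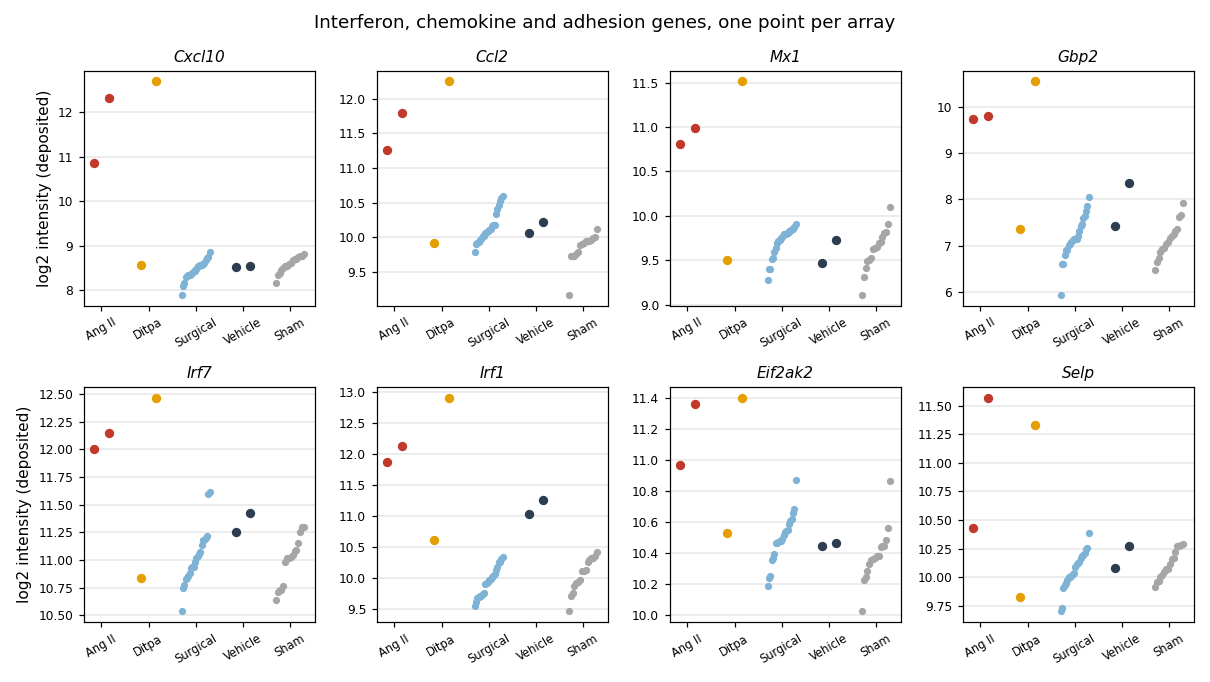
Log2 intensity on the deposited scale (y axis) of 8 genes, 1 point per array, for angiotensin II, Ditpa, surgical models, vehicle and sham (x axis), with points of a group spread in order of value. Both angiotensin II arrays lie above both vehicle arrays in all 8 panels, and 1 of the 2 Ditpa arrays lies at or above the angiotensin II level in 7 of them while the other lies near vehicle or below it.

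Among the effectors of the interferon response, Gbp2, a guanylate-binding GTPase, was at 9.80 and 9.72 with angiotensin II and at 7.42 and 8.35 with vehicle (1.88 ± 0.56). Irgm2, an immunity-related GTPase, was at 11.14 and 10.97 against 9.93 and 10.31 (0.94 ± 0.33). Both Irgm2 vehicle arrays themselves lay above the highest sham array, at 9.80, and the highest surgical array, at 9.48. Eif2ak2, the double-stranded RNA-dependent kinase PKR, was at 11.37 and 10.97 against 10.46 and 10.44 (0.71 ± 0.19). In these genes the angiotensin II and vehicle arrays did not overlap. Rsad2, the antiviral enzyme viperin, was measured by 2 probe sets that differed in size. The brighter one was at 11.47 and 10.95 with angiotensin II and at 10.57 and 10.94 with vehicle (0.45 ± 0.21), where the lower angiotensin II array and the higher vehicle array nearly met, and the other was at 12.28 and 11.31 against 9.81 and 10.44 (1.67 ± 0.35). Ifitm3, which blocks virus entry, had a difference of 0.65 ± 0.31 and Oas1a, which makes the activator of RNase L, 0.39 ± 0.16.

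Transcription factors of the response were also higher. Irf7, the factor that amplifies type I interferon, was at 12.15 and 12.00 with angiotensin II and at 11.25 and 11.42 with vehicle (0.74 ± 0.29). Irf1 was at 12.13 and 11.86 against 11.04 and 11.26 (0.85 ± 0.35). The vehicle arrays of Irf1 themselves lay above all 16 sham arrays, which ran from 9.46 to 10.42. Stat2, which joins the interferon-activated complex, had a difference of 0.41 ± 0.17. The interferon genes themselves were not higher in this way: Ifnb1 was at 0.13 and Ifng at 0.05. In all, 11 of 31 measured genes of the interferon-responsive list were higher at an unadjusted p below 0.05 on both scales, and none was lower, beside 1.03% of 4736 genes that were higher by the same rule. The list was written after these genes were seen to lead, so the count describes it and supports nothing. Its median difference was 0.24 on the deposited and 0.20 on the quantile scale, against -0.00 and -0.02 over all probe sets.

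Chemokines and adhesion molecules of the vessel wall formed the next group. Ccl2, the monocyte chemoattractant MCP-1, was at 11.79 and 11.26 with angiotensin II and at 10.06 and 10.23 with vehicle (1.39 ± 0.36), and its second probe set gave 2.12 ± 0.49. Cxcl13, the B-cell chemokine, was at 9.44 and 10.86 against 8.21 and 8.94 (1.57 ± 0.37). Both vehicle values of Cxcl13 lay above the highest sham array, at 7.70. Selp, the P-selectin of activated endothelium and platelets, was at 11.57 and 10.43 with angiotensin II and at 10.27 and 10.09 with vehicle (0.82 ± 0.27), and here the angiotensin II arrays differed from each other by more than the groups' nearest values. Sele, E-selectin, stood 0.73 ± 0.26 higher, Vcam1, which binds leukocyte integrins, 0.72 ± 0.29, and Icam1 0.38 ± 0.16. Of 32 measured genes in the list of chemokines, cytokines and adhesion molecules, 6 were higher at an unadjusted p below 0.05 on both scales (Cxcl10, which the interferon list also holds, Ccl2, Selp, Sele, Vcam1 and Icam1) and none was lower, beside 1.03% higher and 0.465% lower over all genes. By their brightest probe sets, Il6, Il1b and Tnf had differences of 0.30, 0.24 and 0.03, none of them past that threshold. The median of the list was 0.10 on the deposited and 0.07 on the quantile scale.

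Markers of leukocytes were read beside these values. The 7 measured macrophage markers had a median difference of 0.11 on the deposited and 0.08 on the quantile scale, and their mean quantile-scale level was 11.25 to 11.55 with angiotensin II and 11.30 to 11.34 with vehicle. The 9 lymphocyte markers had medians of -0.02 and -0.03. Neither list had a member past an unadjusted p of 0.05 on either scale. S100a9 and S100a8, neutrophil proteins, had differences of 0.48 ± 0.26 and 0.33 ± 0.23. The part of any cell type in the chemokine and interferon values was not tested.

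Reg3g, a C-type lectin known in mouse as an antibacterial protein of the gut, was at 10.59 and 10.69 with angiotensin II and at 9.59 and 9.45 with vehicle (1.12 ± 0.25, limma adjusted p = 0.20). Both angiotensin II arrays lay above all sham and surgical arrays, while the Ditpa arrays were at 9.44 and 10.80. Counting over genes, both angiotensin II arrays lay above every vehicle, sham and surgical array on both scales for 38 of 4736 genes (0.802%) and below all of them for 2 (0.0422%), Eef1a2 and Etfa. The 38 include Cxcl10, Cxcl13, Ccl2, Ccl3, Gbp2, Mx1, Irf1, Irf7, Irgm2, Eif2ak2, Stat2, Psmb9, Tap1, Selp, Sele, Icam1, S100a8, S100a9 and Reg3g, beside the chaperones Hspa5, Pdia6 and Canx of the endoplasmic reticulum. Genes of other kinds, such as Dnajc5, Acsl5, Pak2 and Ptbp3, are also among them. The count set no limit on size, and some members lay close to vehicle. On the deposited scale Dnajc5 differed from vehicle by 0.06 ± 0.11, Tap1 by 0.14 ± 0.17 and Pdia6 by 0.17 ± 0.19. The Ditpa and neonatal arrays were left out of the count.

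The natriuretic peptide and skeletal actin genes, markers of the loaded heart, were moderately higher. Nppa, which encodes atrial natriuretic peptide, was at 13.79 on both angiotensin II arrays and at 13.04 and 13.41 on the vehicle arrays. The difference was 0.57 ± 0.26 on the deposited and 0.83 ± 0.24 on the quantile scale. Its 4 probe sets ranged from 0.45 to 0.99 on the deposited and from 0.55 to 1.34 on the quantile scale, and on each of them both angiotensin II arrays stood above both vehicle arrays. Nppb, of brain natriuretic peptide, was at 13.92 and 13.70 with angiotensin II and at 13.33 and 13.37 with vehicle (0.46 ± 0.26 on the deposited and 0.78 ± 0.25 on the quantile scale). Acta1, skeletal alpha-actin, was at 13.96 and 14.13 against 13.39 and 13.64 on the deposited scale (0.53 ± 0.24), and on the quantile scale it gave 1.04 ± 0.22 (limma adjusted p = 0.20). These are bright genes, and their differences were larger on the quantile scale. The other genes of the natriuretic list (Nppc, Npr1, Npr2, Npr3 and Furin) lay between -0.08 and 0.12 on both scales. Pam, the enzyme that amidates peptides, was at -0.40 on the deposited and 0.00 on the quantile scale by its brightest probe set. Other Pam probe sets gave 0.36 and -0.01 on the quantile scale, and the mean of its probe sets was -0.11 on the deposited scale.

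**Figure D3:**
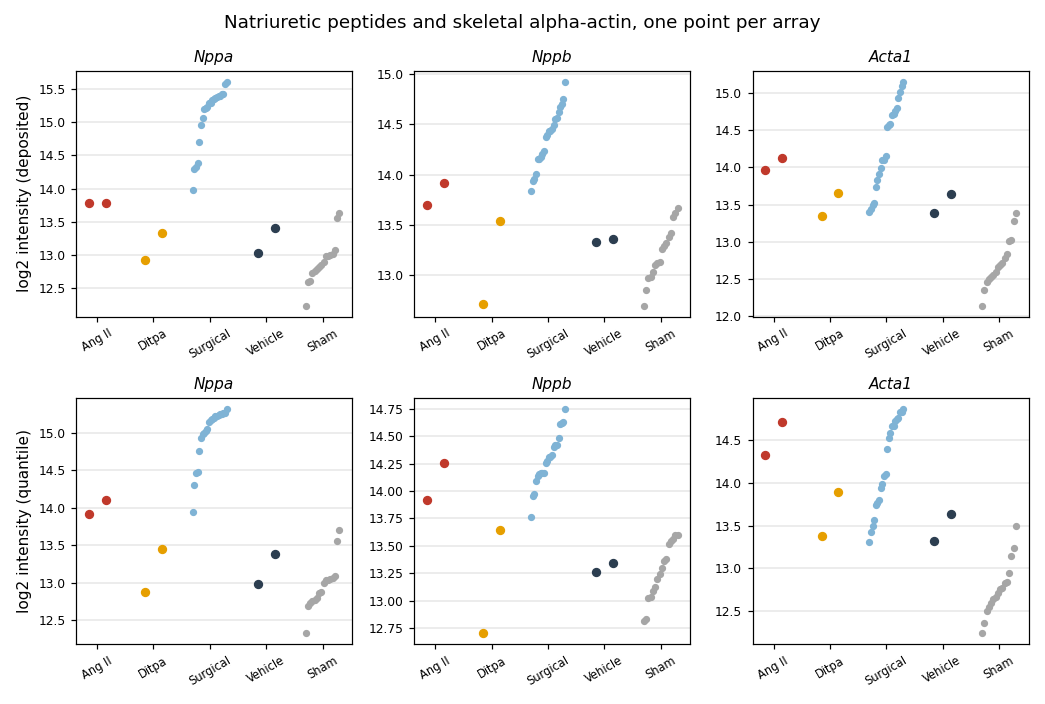
Log2 intensity (y axis) of Nppa, Nppb and Acta1 on the deposited scale (top row) and the quantile scale (bottom row), 1 point per array, for angiotensin II, Ditpa, surgical models, vehicle and sham (x axis). Both angiotensin II arrays lie above both vehicle arrays in every panel, and the surgical arrays reach 15.61 for Nppa on the deposited scale, whereas for Acta1 on the quantile scale the angiotensin II arrays, at 14.33 and 14.72, lie within the surgical range.

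The Nppa difference after 2 weeks of angiotensin II was smaller than after aortic banding, averaged over 6, 12, 16 and 30 weeks. By the paper's heart weights, hypertrophy was also smaller with angiotensin II. Time and degree of hypertrophy cannot be told apart from the model here. For Nppa, banding gave an effect of 2.41 over its shams. The angiotensin II effect minus the banding effect was -1.84 ± 0.29 (limma adjusted p = 0.0016) on the deposited scale and -1.39 (adjusted p = 0.031) on the quantile scale. The other 2 Nppa probe sets called were at -2.08 and -2.26 on the deposited scale. Akip1, which binds the catalytic subunit of protein kinase A, differed by -1.80 ± 0.31 (adjusted p = 0.003), with an angiotensin II effect of 0.35 and a banding effect of 2.15. Cxcl10 differed in the other direction, by 3.22 ± 0.66 (adjusted p = 0.028), with a banding effect of -0.16. In all, 13 probe sets differed from banding on the deposited scale (0.149% of 8740), 1 higher and 12 lower, and 7 on the quantile scale (0.0801%), 3 higher and 4 lower, with 5 called on both: the 3 of Nppa, Akip1 and Cxcl10. Acta1 (-1.49 ± 0.26, adjusted p = 0.0044) and Csrp2, a LIM protein of smooth muscle (-1.48 ± 0.32), passed on the deposited scale only. Acaa2 and Decr1, enzymes of fatty acid oxidation, passed on the quantile scale only, by 1.01 and 1.11, where banding gave -0.98 in both and angiotensin II 0.03 and 0.13. Against infarction, 11 probe sets passed on the deposited scale (0.126%), all lower with angiotensin II, among them 3 of Nppa (by -1.84 to -2.34), Ankrd1, Clu, Gpx3 and Gpx1, and 0 on the quantile scale (0%).

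Probe sets called after banding were then followed. Of 287 called higher after banding on the deposited scale (3.28% of 8740), 74.2% were above 0 with angiotensin II, where 49.2% of all probe sets were. Their median was 0.39 after banding and 0.09 with angiotensin II. Of 173 called lower after banding (1.98%), 50.9% were below 0 with angiotensin II, beside 50.8% of all probe sets. On the quantile scale banding called 238 higher (2.72%) and 288 lower (3.30%), and 72.7% and 59.4% of them lay on the side that banding took, against 42.8% and 57.2% of all probe sets. The shares of probe sets that banding lowered were close to the background, and no test was made of the shares.

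**Figure D4:**
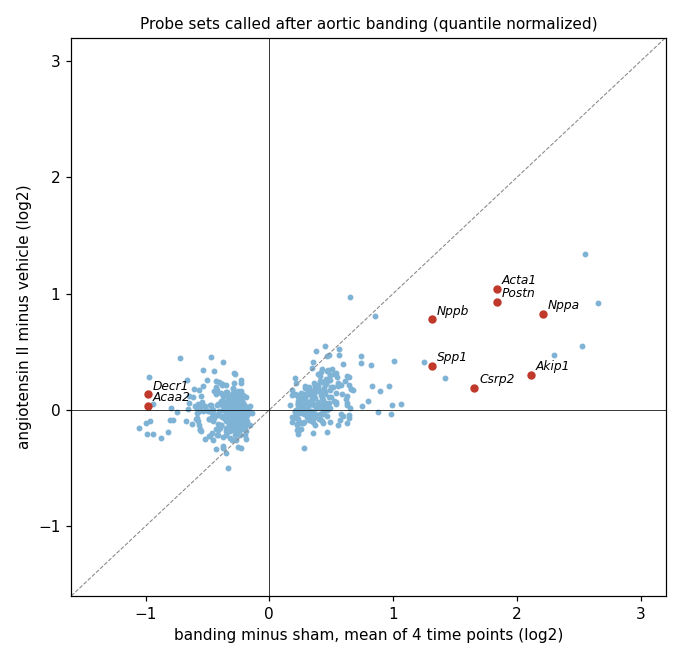
Each point is 1 probe set called after aortic banding on the quantile scale, with the banding effect (mean of 4 time points) on the x axis and the angiotensin II effect on the y axis, both log2. The dashed line marks equal effects. Acta1 stood at 1.04 with angiotensin II, Nppa at 0.83 and Akip1 at 0.30, all below that line, and Acaa2 and Decr1 lie near 0 on the y axis.

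Matrix genes were compared next. Postn, periostin of activated fibroblasts, was at 8.34 on both angiotensin II arrays and at 7.34 and 7.53 on the vehicle arrays (0.91 ± 0.56), against surgical arrays that ran from 7.04 to 11.11. Spp1, osteopontin, was 0.38 ± 0.65 higher. Col1a1 (0.02), Col3a1 (0.08), Fn1 (0.15) and Timp1 (0.24) had differences below their SE or about equal to it by their brightest probe sets. The second Timp1 probe set was at 10.59 and 10.97 with angiotensin II and at 10.04 and 9.85 with vehicle (0.84 ± 0.46). The collagens depended on the controls: with the sham groups in place of vehicle, Col1a1 was 0.86 ± 0.22 higher (limma adjusted p = 0.012) and Col3a1 0.87 ± 0.18 (adjusted p = 0.0017), and both vehicle arrays of Col1a1, at 12.94 and 12.95, lay above the highest sham array, at 12.83. In the vehicle comparison the smooth muscle actin gene Acta2 was at -0.21 ± 0.29 by its brightest probe set. Another Acta2 probe set was at 0.36 on the quantile scale, and the mean of its probe sets was 0.11 on the deposited scale. The direction of Acta2 thus depended on the probe set. Of 30 measured matrix genes, 0 were higher and 0 lower at an unadjusted p below 0.05 on both scales, where 1.03% and 0.465% of all genes were. At those shares a list of this size would hold hardly any, so the count says little. The median of the list was 0.02 on the deposited and -0.02 on the quantile scale. Ankrd1, a stretch-responsive cardiac repressor, was at -0.39 ± 0.13 on the deposited and 0.21 ± 0.11 on the quantile scale, so its direction depended on the scaling.

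The renin-angiotensin genes themselves differed little in size. The 18 measured members (Agt, Ace, Agtr1a, Agtr1b, Agtr2, Mas1, Enpep, Anpep, Rnpep, Lnpep, Cma1, Mme, Nr3c2, Cyp11b2, Hsd11b1, Hsd11b2, Bdkrb1 and Bdkrb2) lay between -0.26 and 0.15 on the deposited scale, and 0 passed an unadjusted p of 0.05 on both scales. Over all genes 1.03% were higher and 0.465% lower by that rule. A list of this size would then hold hardly any, so the count says little. Agt, angiotensinogen, was at 11.06 and 11.01 with angiotensin II and at 10.95 and 10.88 with vehicle. Agtr1a, the type 1 receptor, was at 10.88 and 10.69 against 10.72 and 10.78, and the groups overlapped. Mme, the peptidase neprilysin, was the lowest at -0.26 ± 0.13, with 9.23 and 9.14 against 9.36 and 9.53. Of the 22 endothelin and vasoactive genes none passed an unadjusted p of 0.05 on either scale, and Edn1, endothelin-1, was at 0.26 ± 0.25.

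Metabolic and stress genes made up much of the rest. Pdk4, the kinase that shuts off pyruvate dehydrogenase, was at 11.66 and 11.14 with angiotensin II and at 10.07 and 10.50 with vehicle (1.12 ± 0.36, limma adjusted p = 0.58), and the Ditpa arrays were at 10.72 and 12.25. Sgk1, a kinase induced by mineralocorticoids and glucocorticoids, was at 10.58 and 10.21 against 9.64 and 9.81 (0.67 ± 0.25), and Arrdc4, an arrestin-like gene that responds to glucose, at 10.47 and 10.03 against 9.36 and 9.75 (0.70 ± 0.20). Ryr2, the calcium release channel, was at 10.04 and 10.07 with angiotensin II and at 9.11 and 9.68 with vehicle (0.66 ± 0.35). The angiotensin II arrays lay within the sham range for Ryr2, from 8.73 to 10.33, and for Sgk1, from 9.30 to 10.80. Txnrd1, thioredoxin reductase, stood 0.56 ± 0.23 higher.

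Of 26 measured chaperone genes, 3 were higher at an unadjusted p below 0.05 on both scales (Hspa1a, Hsph1 and Dnaja1) and none was lower on both, beside 1.03% higher and 0.465% lower over all genes, and 4 were lower on the deposited scale alone. For 14 the groups did not overlap with angiotensin II higher on both scales, and for none with angiotensin II lower, where all genes had 14.1% and 15.6%. Hspa1a, inducible HSP70, was at 11.24 and 10.15 with angiotensin II and at 9.98 and 10.07 with vehicle (0.67 ± 0.27), so replicate 1 carried most of it. Stip1, which bridges HSP70 and HSP90, was likewise at 10.82 and 9.91 against 9.64 and 9.65 (0.72 ± 0.26). The median of the chaperone list was 0.15 on the deposited and 0.18 on the quantile scale.

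The lowest genes differed by less than the highest. Eef1a2, the muscle form of elongation factor 1A, was at 13.53 and 13.42 with angiotensin II and at 14.03 and 13.91 with vehicle (-0.50 ± 0.17 on the deposited and -0.47 on the quantile scale). Etfa, which passes electrons from acyl-CoA dehydrogenases to the respiratory chain, was at 13.23 and 13.21 against 13.76 and 13.54 (-0.43 ± 0.12). Mpc1, the mitochondrial pyruvate carrier, had -0.66 on the deposited and -0.42 on the quantile scale. Sdc4, a heparan sulphate proteoglycan, was at -0.47, Eef1g at -0.44, the water channel Aqp1 at -0.40, Kif13a at -0.39, the small GTPase Cdc42 at -0.38, Pygm, muscle glycogen phosphorylase, at -0.37, Jup, plakoglobin of cell junctions, at -0.37, Pck1 at -0.37, Mecr at -0.35, Ndst1 at -0.35 and Ndufa9, of complex I, at -0.35. Second probe sets of Sdc4, Etfa, Pygm and Mecr gave 0.08, 0.18, 0.03 and 0.06, so the lower value of those genes rests on 1 probe set, as does that of Cdc42, whose other probe sets lay above 0. For Kif13a the nearest arrays of the groups were 10.37 with angiotensin II and 10.39 with vehicle.

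The values of the bright oxidative phosphorylation genes depended on the scaling. Its 36 measured genes had a median of -0.37 on the deposited scale, with 18 lower and 1 higher at an unadjusted p below 0.05 (1.96% and 1.25% of all genes), and of -0.04 on the quantile scale, with 3 lower and 2 higher (0.676% and 1.33% of all genes). The 3 lower on both were Ndufa5, Atp5f1c and Cox8b, at -0.43, -0.58 and -0.61 on the deposited and -0.30, -0.21 and -0.23 on the quantile scale, and Slc25a5, an adenine nucleotide carrier, was higher on both (0.43 and 0.38). A second probe set of Cox8b was at -0.55 on the deposited and 0.03 on the quantile scale. The median of the 12 cardiomyocyte markers also depended on the scaling, at -0.58 on the deposited and -0.01 on the quantile scale. Single markers went both ways, from -0.66 to 0.66 on the deposited and from -0.22 to 0.63 on the quantile scale. Actn2, sarcomeric alpha-actinin, was at -0.56 and -0.22, and Ryr2 at 0.66 and 0.63. On both scales, the groups did not overlap for 2 markers with angiotensin II higher and for 5 with it lower. The mean quantile-scale level of the 12 markers was 13.86 to 13.87 with angiotensin II and 13.82 to 13.83 with vehicle.

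**Figure D5:**
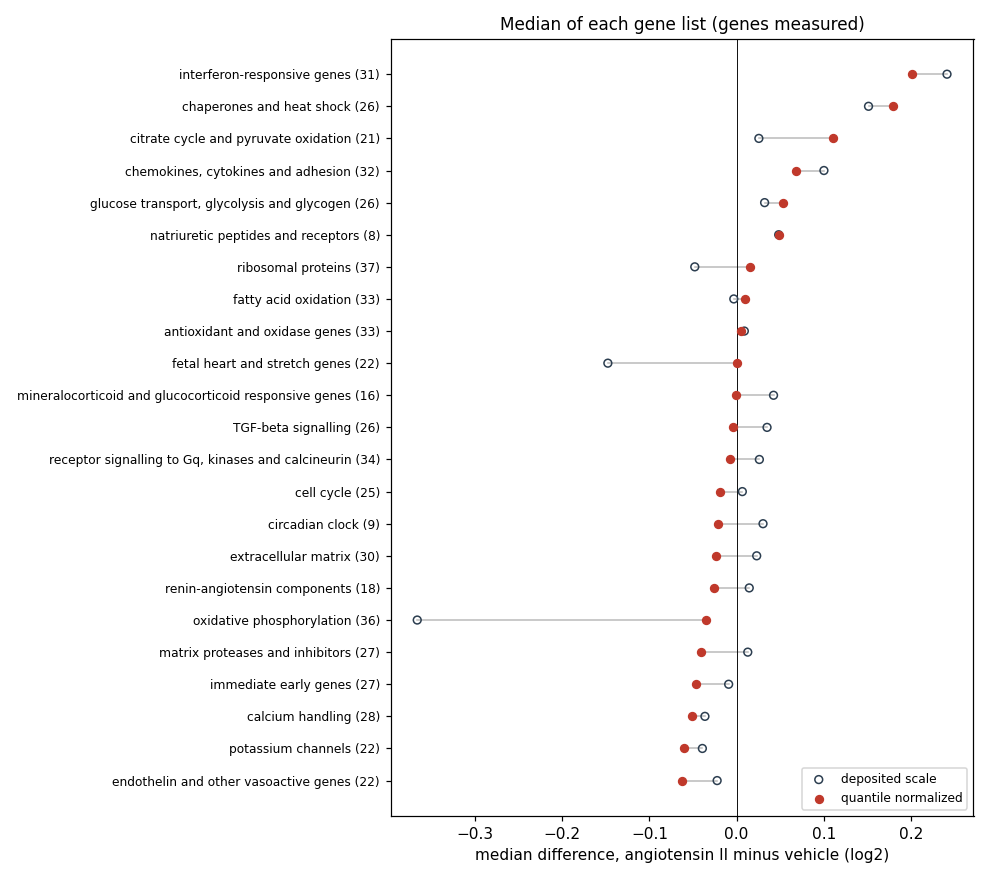
Median log2 difference of angiotensin II minus vehicle (x axis) for the pathway lists and the interferon-responsive list (y axis, with the number of genes measured; cell type marker lists are not drawn), on the deposited scale (open circles) and the quantile scale (filled circles). Of the lists drawn, the interferon-responsive list is highest, at 0.24 and 0.20, and oxidative phosphorylation moves most between the scales, at -0.37 and -0.04. The interferon-responsive list was written after its genes were seen to lead, so its place follows from that choice and supports nothing.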

How the data were processed

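Each array held 1 pool of left-ventricular RNA hybridized to an Affymetrix rat genome array. The deposited intensity values were model-based expression values that the authors computed with dChip from the perfect-match probes after invariant-rank normalization, and they are on a linear scale.

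Intensities were raised to at least 16 and log2 transformed (deposited scale). They were also quantile normalized over the 46 arrays before the same steps (quantile scale). One mean was fitted to each of 20 groups with limma 3.58.1 in R 4.3.3, with 26 residual degrees of freedom, and p-values were Benjamini-Hochberg adjusted over 8740 probe sets. The model was tested on simulated data. Of the probe sets, 7006 had 1 gene symbol, 308 had several and 1426 had none. A gene was represented by its brightest probe set.

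Named genes were the 14 highest and 14 lowest by the smaller effect of both scales, among genes outside the dimmest 25% whose 2 groups were apart, in the same direction, on both scales. Called probe sets, list members at an unadjusted p below 0.05 on both scales, renin-angiotensin, endothelin and natriuretic genes, and a set of hypertrophy and matrix genes were added. The members, gene lists and tests were chosen with earlier results of these data known. The interferon list and the fits without the Ditpa arrays were added after seeing the data.

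The 250 bases before the start of each gene (RefSeq, GRCr8, 33469 promoters) were searched on both strands for 3 motifs. Alternatives were other scalings, floors, filters, variance models, array weights, sample sets, references and a replicate term, and leaving out each angiotensin II or vehicle array. The number of arrays, 2 in each group, limits the precision.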

Additional observations from a re-analysis of the deposited data

Results flagged for a closer look

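The effect of angiotensin II differed from that of another model, by a test of the difference itself on the deposited scale, in 22 comparisons of 16 probe sets with a gene symbol, of which 6 differed from both banding and infarction. Against aortic banding, 3 probe sets of Nppa differed by -2.08, -1.84 and -2.26, Akip1 by -1.80, Acta1 by -1.49, Csrp2 by -1.48, Ankrd1 by -0.93, Pam by -0.80, Tmsb4x by -0.78, Hspb6 by -0.75 and Cxcl10 by 3.22. Of these, the 3 of Nppa, Akip1 and Cxcl10 also passed on the quantile scale. Against infarction, the same 3 Nppa probe sets differed by -1.84, -1.89 and -2.34, Gpx3 by -1.11, Ankrd1 by -1.10, Clu by -1.04, 2 probe sets of Gpx1 by -0.87 and -0.78, Pam by -0.82, and 2 probe sets of Hspb6 by -0.79 and -0.73. None of those passed on the quantile scale. Groups of 2 arrays are too small for a test of single outlying arrays.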

How the results depend on the processing

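Angiotensin II against vehicle gave 0 calls at an adjusted p below 0.05 with quantile normalization, median centring, a lower or higher floor, without the dimmest 25%, with an intensity trend, or with only the hormone and vehicle arrays. Array weights gave 194, sham groups in place of vehicle 438, a replicate block 2 on either scale, and leaving out the Ditpa arrays, chosen after seeing the data, 11 on the deposited and 9 on the quantile scale. Leaving out 1 array gave 3 to 5. At an unadjusted p below 0.05 the 305 probe sets became 180 on the quantile scale with the floor before or after normalization, 841 with array weights, 678 and 485 with only hormone and vehicle arrays (deposited, quantile), 1205 against shams, 181 with a replicate block and 191 without the Ditpa arrays on the quantile scale, and 65 to 299 without 1 array.

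The 13 that differed from banding became 7 on the quantile scale, 187 with array weights, 25 without the Ditpa arrays and 8 to 13 without 1 array, and the 11 that differed from infarction became 0, 184, 17 and 5 to 14. Of probe sets higher after banding, 66.7% to 76.3% stayed on that side without 1 array, and of those lower 33.3% to 75.0%. The replicate numbers did not pair the arrays (correlation of deviations -0.043 on the deposited and -0.045 on the quantile scale).

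Directions turned as follows. With quantile normalization and all 4 arrays Ankrd1 was 0.21 (0.20 with the floor first), Pam 0.0040 (0.0039), Acaa2 0.033 (0.032), Clu 0.13, 1 probe set of Hspb6 0.17, Col1a1 -0.026 and Agtr1a -0.014. Another Hspb6 probe set did not turn and was at -0.11. Without 1 array on that scale, the turn did not hold in every fit for Pam (-0.037 without angiotensin II replicate 2 and -0.033 without vehicle replicate 1), Acaa2 (-0.016 without vehicle replicate 2), Col1a1 (0.0027 without angiotensin II replicate 2) or Agtr1a (0.063 without angiotensin II replicate 2 and 0.010 without vehicle replicate 2). It held in each for Ankrd1, Clu and the Hspb6 probe set at 0.17. Against shams Decr1 was -0.047, Edn1 -0.037, Agtr1a -0.19, Ace 0.072 and Gpx3 0.39. With median centring Decr1 was -0.0048 and Col1a1 -0.0094, and by the methods' ratio Decr1 was -0.017. With the mean of a gene's probe sets Col1a1 was -0.019, Acta2 0.11 and Cdc42 0.026. Without 1 array, over both scales, the ranges were -0.46 to 0.25 for Ankrd1, -0.47 to 0.045 for Pam, -0.48 to 0.082 for Acaa2, -0.53 to 0.24 for Clu, -0.47 to 0.20 for Hspb6, -0.093 to 0.13 for Col1a1, -0.087 to 0.24 for Col3a1, -0.090 to 0.12 for Agtr1a, -0.31 to 0.46 for Decr1, -0.17 to 0.020 for Ace, -1.49 to 0.049 for Fos and -0.26 to 0.0021 for Gpx3. Of 2572 single-gene values under alternatives, 2251 kept their direction and side of the threshold. The causes were not tested.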

Other observations

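A few genes outside the groups above stood apart in 1 array only. Fos, the immediate early transcription factor, was at 12.26 and 10.76 on the angiotensin II arrays and at 12.13 and 12.30 on the vehicle arrays by 1 probe set, and the 16 sham arrays lay between 12.03 and 12.55. Bmal1, a core clock factor, was at 9.52 and 10.21 with angiotensin II and at 10.26 and 10.19 with vehicle. Neither difference belongs to both angiotensin II arrays.

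Cdk1, the mitotic kinase, was at 9.12 and 9.57 with angiotensin II and at 8.60 and 8.89 with vehicle (0.60 ± 0.24), and Btg1, an antiproliferative gene, was 0.49 ± 0.18 higher. The cell cycle list as a whole had a median of 0.01 on the deposited and -0.02 on the quantile scale over 25 genes. Xdh, xanthine dehydrogenase, was at 12.37 and 12.33 against 11.87 and 11.81 (0.51 ± 0.29), and Cp, the ferroxidase ceruloplasmin, was 0.36 ± 0.15 higher. Rpl35, of the large ribosomal subunit, was at -0.51 on the deposited and -0.26 on the quantile scale.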
